A study of Homo sapiens with 4 samples.

Results

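The genes of the matrix metalloproteinases (MMPs), the ADAMs, the ADAMTS proteases with the related ADAMTS-like proteins, and the tissue inhibitors of metalloproteinases (TIMPs) were examined in RNAseq libraries of LX-2 cells. LX-2 is an immortalised human hepatic stellate cell line, so all libraries come from the cells of 1 line. Members were every protein-coding gene of the count table whose symbol followed the naming pattern of these families, which gave 71 genes of 63677 gene identifiers. They comprise 23 MMPs, 20 ADAMs, 19 ADAMTS proteases, 5 ADAMTS-like proteins and 4 TIMPs. In the 2 miR-6133-5p libraries the cells had been transfected with a mimic of miR-6133-5p, and in the 2 miControl libraries with a negative control mimic, each at 20 nM. Both groups then received 5 ng/mL of recombinant human TGF-β1 24 h after transfection, and RNA was taken 24 h later, so every value below describes TGF-β1-treated cells and the libraries hold no untreated group. The comparison asks which genes of these families differ in level between the 2 transfections. No label says whether the libraries of a group came from separate cultures, so the p-values measure only the spread between these samples, which may be technical.

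MMPs are zinc-dependent endopeptidases, made as inactive proenzymes, that cut collagens, gelatin, proteoglycans and other matrix and cell surface proteins. ADAMs are mostly membrane-bound and release the outer parts of other membrane proteins, and ADAMTS proteases are secreted and bind the matrix through thrombospondin repeats. TIMPs bind the active sites of these enzymes, and in the liver activated hepatic stellate cells are a main source of MMPs and TIMPs as well as of fibrillar collagen. The mimic copies a microRNA made from the *MIR6133* gene. Its hairpin precursor in RefSeq lies on the plus strand at chr7:133290881-133290988 of GRCh38.p14 and is shown because it is the source of the agent that separates the groups.
MIR6133 hairpin: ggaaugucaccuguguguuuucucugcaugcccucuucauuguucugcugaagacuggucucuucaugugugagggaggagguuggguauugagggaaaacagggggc

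Library totals ran from 51862006 to 93811213 counts in genes, and 3 counts, taken as the floor of detection, were at most 0.0610 CPM, a unit that divides counts by TMM-adjusted totals. Log2 CPM of the 2 libraries of a group correlated across genes with Pearson's r of 0.991 in each group, and genes are not independent replicates. Of 16 markers of stellate and mesenchymal cells, 12 passed the filter on low counts, and the summed level of the list was between 8550 and 9137 CPM in the miControl libraries and between 5549 and 6147 CPM in the miR-6133-5p libraries. The called ones were *ACTA2*, *COL1A1*, *COL1A2* and *TAGLN*, all 4 lower. *COL1A1* alone was at 3110 and 2722 CPM with miControl and at 994 and 1132 CPM with miR-6133-5p. The 8 tested markers not called went both ways on the log2 scale. *PDGFRB* (0.04), *THY1* (0.35) and *RGS5* (0.58) were above 0. *VIM* (-0.02), *HAND2* (-0.07), *SPARC* (-0.40), *PDGFRA* (-0.97) and *DCN* (-2.40, at most 10 counts) were below. *VIM*, *SPARC* and *COL1A1* were abundant, whereas *DES*, *LRAT* and *LUM* stayed at 7 counts or fewer and *GFAP* at 8 counts in every library. The hepatocyte markers *ALB*, *APOA1*, *CYP3A4*, *TTR* and *HNF4A* had at most 8 counts, with *TTR* and *HNF4A* at 0, and *SERPINA1* was between 1.97 and 2.78 CPM. Of the cholangiocyte markers, *KRT19* and *EPCAM* had at most 18 counts, while *KRT7* was at 3.62 and 4.44 CPM with miControl and 6.60 and 7.08 CPM with miR-6133-5p (log2 fold change of 0.76, adjusted p of 0.00317, not called). Of the macrophage markers, *CD163* and *MARCO* had at most 1 count, *PTPRC* at most 23, *CD14* was between 0.954 and 1.97 CPM and *CSF1R* between 7.02 and 9.43 CPM. Of the endothelial markers, *CDH5* had at most 12 counts, and *STAB2*, *KDR* and *VWF* were between 0.183 and 2.44 CPM. *PECAM1*, also on that list, matched no protein-coding row of the count table and is missing from its sum. The summed lists of hepatocyte, macrophage and endothelial markers were at 2.01 to 2.84, 9.06 to 11 and 2.87 to 3.17 CPM over the 4 libraries. *SOX9*, also on the cholangiocyte list, was called lower, at 80.1 and 80.7 CPM with miControl and 33.1 and 29.5 CPM with miR-6133-5p. The part of these markers in the results below was not tested.

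Of the 71 members, 48 had enough counts to be tested, among them *MMP8*, which passed through its miControl libraries, and *ADAM20*, which passed through its miR-6133-5p libraries. The edgeR quasi-likelihood test was applied to all genes, and a gene was called where its adjusted p was under 0.01 and its change larger than 0.8 in either direction on the log2 scale. With miR-6133-5p, 8 members were called lower, beside a background of 5.54% of the 18252 genes tested, and 2 were called higher, beside a background of 2.90%. These counts are 16.7% and 4.17% of the tested members. Members called lower were *TIMP3*, *ADAM19*, *ADAMTSL1*, *ADAMTS2*, *MMP14*, *ADAMTS12*, *ADAM12* and *MMP8*, and those called higher were *MMP9* and *ADAMTS15*. Groups that do not overlap were found for 24 members on the lower side and 17 on the higher side, together 85.4% of the tested members, beside 64.4% of all genes tested. The median log2 fold change was -0.11 over the tested members and 0.03 over all genes tested. The 23 members that were not tested had at most 14 counts in any library, and 10 of them had 0 counts in every library. RNA of a bulk sample cannot tell fewer cells that use a gene from less RNA of that gene per cell.

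The balance of lower and higher calls depends on the scaling. With library totals alone, the median of all genes moved up by 0.163 on the log2 scale. Then 7 members were called lower and 6 higher, beside 710 and 977 of the 18252 genes tested. Among the members the lower share of the calls thus went from 80.0% to 53.8%. Over all genes that share moved alike, from 65.6% to 42.1%, so the shift is not particular to the members. *ADAM12* lost its call under that scaling, and *ADAM15*, *ADAM32*, *ADAMTS4* and *ADAMTS13* gained one. Under the 3 other scalings the sign of the change turned only for *ADAMTSL4* among the tested members, which stood at -0.02 as reported. A test against the fold threshold itself (glmTreat) kept 4 of the 8 members as lower, *TIMP3*, *ADAM19*, *ADAMTSL1* and *MMP8*, and neither of the 2 as higher. *MMP8* passed the filter only through its miControl libraries, so its place among the 4 supports nothing by itself. At an unadjusted p below 0.05 that test had 8 members on the lower side and 2 on the higher side, beside 4.95% and 2.62% of all genes tested.

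**Figure D1:**
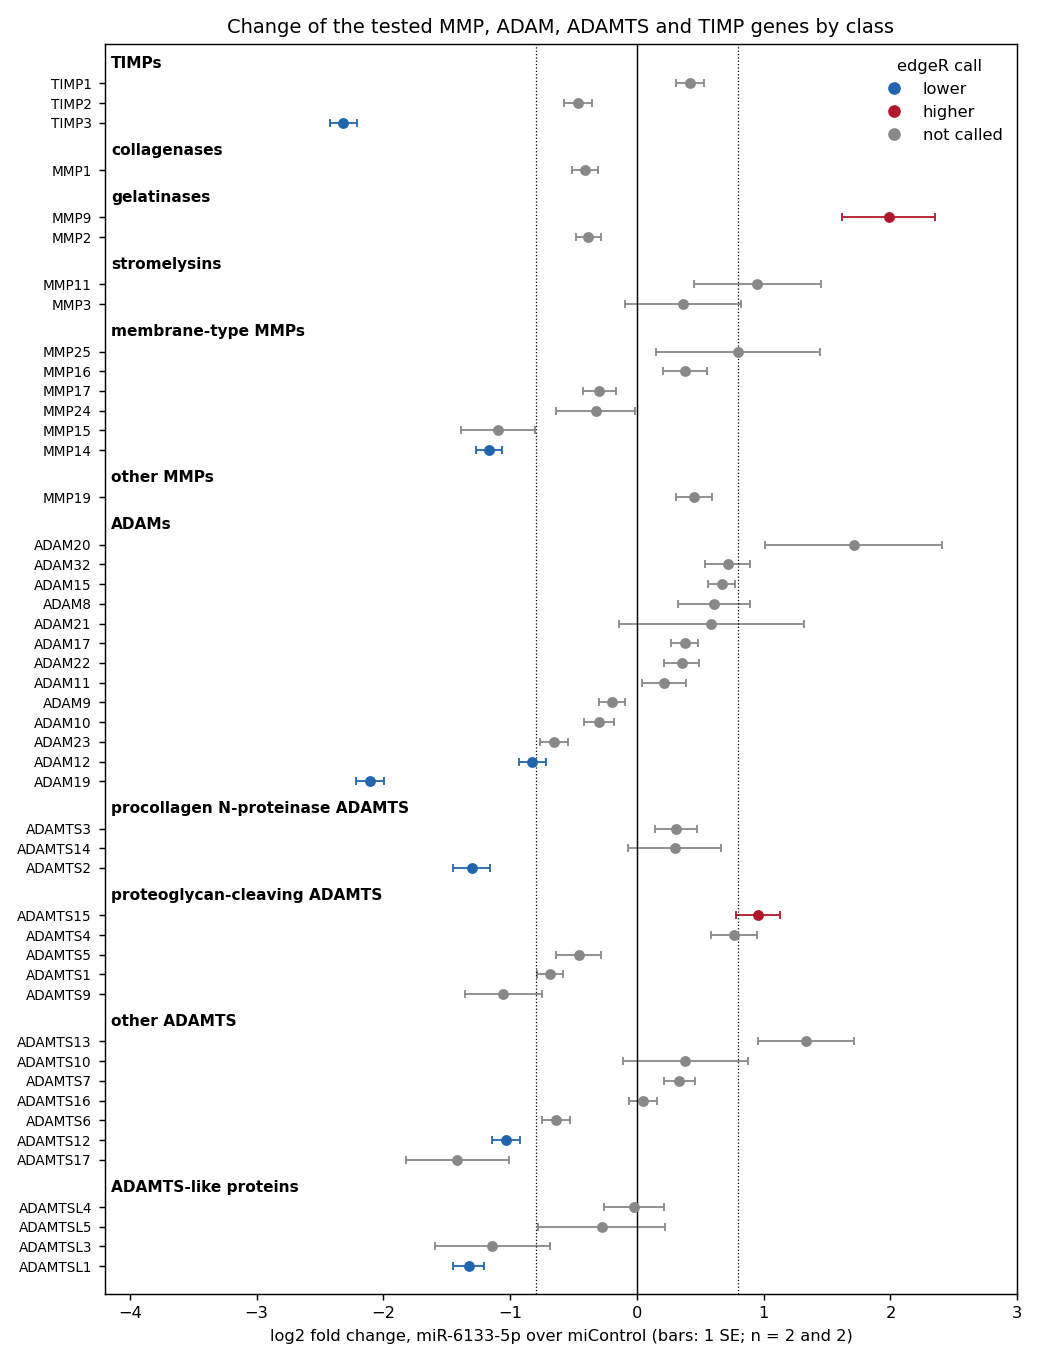
Log2 fold change of miR-6133-5p over miControl for the tested members by class, with bars of 1 SE and dotted lines at the fold threshold of 0.8. MMP8, which had 0 counts in both miR-6133-5p libraries, is left off. TIMP3 at -2.32 and ADAM19 at -2.11 lie farthest to the left, and MMP9 at 1.99 farthest to the right.

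Among the inhibitors, the RNA of *TIMP3* fell and that of the other TIMPs was not called. *TIMP3* differs from its relatives in that the secreted protein is held in the matrix, and in that it inhibits many ADAMs and ADAMTS proteases besides MMPs. *TIMP3* was at 842 and 838 CPM in the miControl libraries and at 173 and 164 CPM in the miR-6133-5p libraries. Both libraries with the mimic were far below both controls, a level 4.98-fold lower, with a log2 fold change of -2.32 ± 0.105 (SE, n = 2 and 2) and an adjusted p of 1.98e-08 in edgeR. *TIMP3* lies on the plus strand of chromosome 22, and its RefSeq promoter, from 250 bases before to 50 bases after the start, covers chr22:32801455-32801754 of GRCh38.p14. It is printed, with matches to the GC box in capitals, because this gene had the largest change of the members with counts in every library.
TIMP3 promoter: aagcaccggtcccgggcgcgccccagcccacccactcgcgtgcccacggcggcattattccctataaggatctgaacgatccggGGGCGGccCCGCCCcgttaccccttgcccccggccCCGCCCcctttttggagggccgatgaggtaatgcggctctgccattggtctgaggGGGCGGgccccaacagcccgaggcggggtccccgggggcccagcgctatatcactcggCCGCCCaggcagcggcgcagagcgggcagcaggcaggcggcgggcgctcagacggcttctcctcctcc

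The GC box was searched as GGGCGG on both strands. The *TIMP3* window holds 5 matches, 72.7% G and C and 31 CpG sites, where the median promoter of the RefSeq table holds 58.7% and 14.

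*TIMP1*, a soluble inhibitor that is a usual marker of fibrogenic activity in liver, was at 199 and 185 CPM with miControl and at 279 and 235 CPM with miR-6133-5p. The groups did not overlap, and the log2 fold change of 0.42 ± 0.114 (SE) had an adjusted p of 0.0134, so the gene was not called. *TIMP2*, which inhibits MMP2 and also helps MMP14 to activate its proenzyme, was at 430 and 417 CPM against 333 and 280 CPM. That difference, -0.47 ± 0.111 (SE) on the log2 scale, had an adjusted p of 0.00644 but was smaller than the fold threshold. *TIMP4* had 0 counts in all 4 libraries.

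The share of each TIMP in the inhibitor RNA was also computed. Levels were compared between genes as CPM per kilobase of the canonical transcript. *TIMP3* made up 32.7% and 33.9% of the summed TIMP level per kilobase in the miControl libraries and 7.66% and 8.55% in the miR-6133-5p libraries. *TIMP1* made up 46.2% and 44.9% of that sum with miControl and 73.8% and 73.1% with the mimic. The share of *TIMP2* was between 18.4% and 21.2% in the 4 libraries. The ratio of *TIMP1* to *TIMP3*, per kilobase, was thus 1.37 ± 0.0628 (SD, n = 2) with miControl and 9.09 ± 0.774 with miR-6133-5p. The smallest two-sided p that an exact permutation test of 2 libraries against 2 can give is 0.333, so that test cannot pass 0.05 here, and the ratios and shares are given as values with their spread.

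Summed over the family, the TIMP level was 549 ± 15.6 CPM per kilobase (SD, n = 2) with miControl and 455 ± 52.8 with miR-6133-5p. The MMP sum was 203 ± 2.11 CPM per kilobase with miControl and 141 ± 1.53 with the mimic. The summed TIMPs exceeded the summed MMPs 2.73 and 2.66 times in the miControl libraries and 3.45 and 2.97 times in the miR-6133-5p libraries, per kilobase. The ratio of the 2 sums was therefore not lower in either library with the mimic, although *TIMP3* was.

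**Figure D2:**
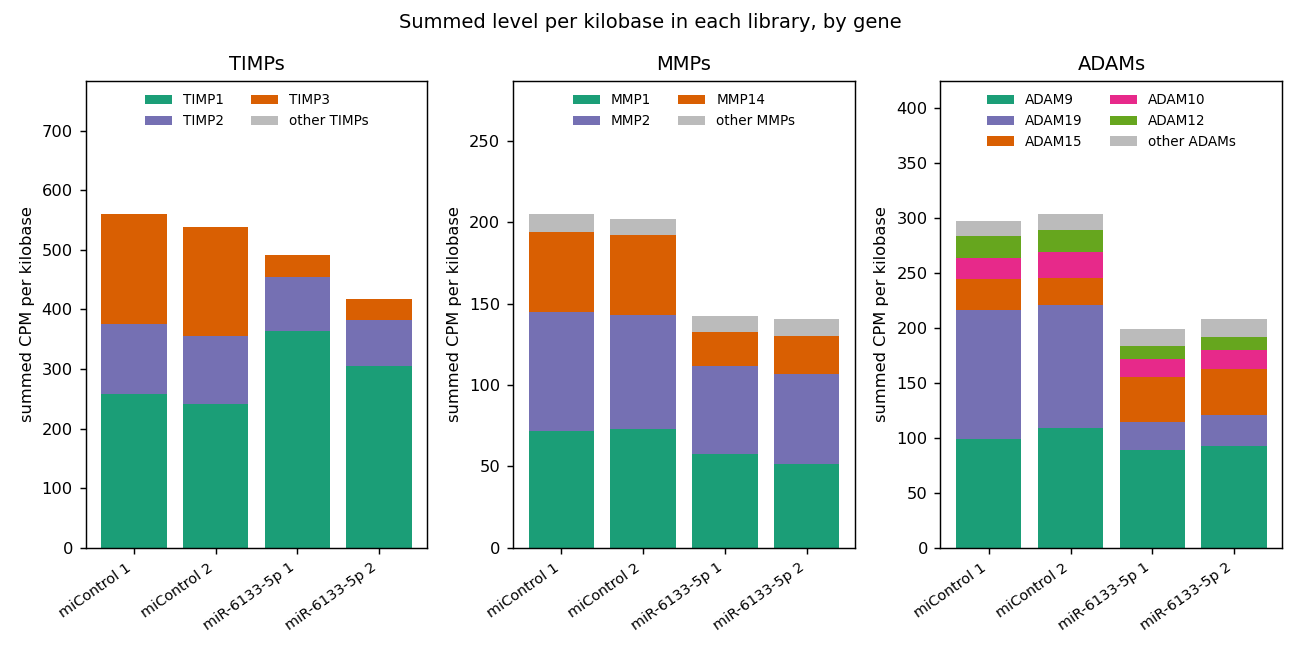
Summed level in CPM per kilobase of the TIMPs, MMPs and ADAMs in each of the 4 libraries, split by gene. TIMP3 (33.9% or less of the TIMP sum) and ADAM19 (39.5% or less of the ADAM sum) shrink to at most 8.55% and 13.6% in the miR-6133-5p libraries, and TIMP4 was at 0.

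Of the 23 MMPs, 13 were tested, 2 were called lower and 1 was called higher, with a median log2 fold change of -0.30. These are 15.4% and 7.69% of the tested MMPs, beside 5.54% and 2.90% of all genes tested. One of the 2 lower calls is *MMP8*, which passed the filter only through its miControl libraries. *MMP1*, *MMP2* and *MMP14* accounted for most of the MMP RNA. *MMP14*, the membrane-type MMP that cuts fibrillar collagen at the cell surface and activates the proenzyme of MMP2, fell, whereas the more abundant *MMP1* and *MMP2* were not called. *MMP14* was at 182 CPM in each miControl library and at 77.7 and 84.6 CPM in the miR-6133-5p libraries. The libraries of the groups lay well apart, and the level was 2.24-fold lower, with a log2 fold change of -1.17 ± 0.104 (SE) and an adjusted p of 2.95e-06. Its share of the MMP sum per kilobase was 24.0% and 24.4% with miControl and 14.7% and 16.3% with miR-6133-5p.

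The other membrane-type MMPs were less abundant than *MMP14*. *MMP15*, a close relative of *MMP14*, was at 1.63 and 1.58 CPM with miControl and 0.764 and 0.736 CPM with the mimic. Its log2 fold change of -1.09 ± 0.291 (SE) was close to that of *MMP14*, but the adjusted p of 0.0121 missed the threshold. *MMP16*, *MMP17*, *MMP24* and *MMP25* had log2 fold changes between -0.33 and 0.80 and were not called. Summed, the membrane-type MMPs were at 56.8 ± 0.41 CPM per kilobase (SD, n = 2) with miControl and 28.4 ± 1.53 with miR-6133-5p. Most of each sum was *MMP14*, with a mean of 49.2 CPM per kilobase with miControl and 21.9 with miR-6133-5p.

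*MMP1*, the interstitial collagenase that cuts type I collagen, was at 141 and 144 CPM with miControl and 113 and 102 CPM with miR-6133-5p. Both libraries with the mimic were below both controls, and the log2 fold change of -0.41 ± 0.104 (SE) with an adjusted p of 0.00925 was smaller than the fold threshold. *MMP1* lies in a cluster of 9 MMP genes on chromosome 11, between 102391239 and 102826461 of GRCh37. In each library *MMP1* held between 99.2% and 99.6% of all counts of this cluster, and no other gene of it reached 100 counts.

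One of these neighbours, *MMP8*, the collagenase known from neutrophils, was counted 10 and 20 times with miControl and 0 times in both miR-6133-5p libraries. Its mean with miControl was 0.285 CPM, a level 7.49-fold above that of the floor of 3 counts set for each miR-6133-5p library. That figure leaves out the counting error of the 10 and 20 counts. Mates were largely counted singly, so 3 counts can be fewer than 3 fragments and the figure is no firm bound. The gene passed the filter only through the miControl libraries, where it was high, so its place among the 8 lower calls (adjusted p of 0.00122 in edgeR) supports nothing by itself. The call was lost with DESeq2 and without miControl replicate 1 (adjusted p of 0.0207), and the gene was not tested where at least 10 counts were required in every library. *MMP13*, the third collagenase, had at most 2 counts.

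Of the gelatinases, *MMP9* was called and *MMP2* was not. *MMP2*, gelatinase A, was among the most abundant members, at 257 and 244 CPM with miControl and 190 and 194 CPM with miR-6133-5p. It was not called, at -0.38 ± 0.101 (SE) on the log2 scale and an adjusted p of 0.0116. *MMP9*, gelatinase B, was near the lower end of detection, at 0.366 and 0.312 CPM with miControl and 1.10 and 1.57 CPM with the mimic. *MMP9* rose, with a log2 fold change of 1.99 ± 0.367 (SE) and an adjusted p of 0.00116, and still made up at most 0.480% of the MMP sum per kilobase. The call was lost without miControl replicate 1 (adjusted p of 0.0196) and without miControl replicate 2 (0.0195). Of the exon bases of *MMP9*, 18.4% overlap an antisense gene, *SLC12A5-AS1*, and the strand setting of the counting is not given in the sources used here.

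Stromelysins and the remaining MMPs were rare. *MMP3*, stromelysin 1, ranged from 0.367 to 0.756 CPM with overlapping groups, and the sign of its change turned from 0.36 to -0.29 on the log2 scale without miR-6133-5p replicate 2. *MMP11* was between 0.165 and 0.474 CPM and *MMP10* had at most 10 counts. *MMP7*, the more abundant matrilysin, had at most 2 counts, and *MMP26* had none. *MMP19*, the one gene of the other MMPs that was tested, was at 6.10 and 6.26 CPM with miControl and 8.90 and 7.98 CPM with miR-6133-5p, an increment of 0.45 ± 0.142 (SE) on the log2 scale with an adjusted p of 0.0292.

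**Figure D3:**
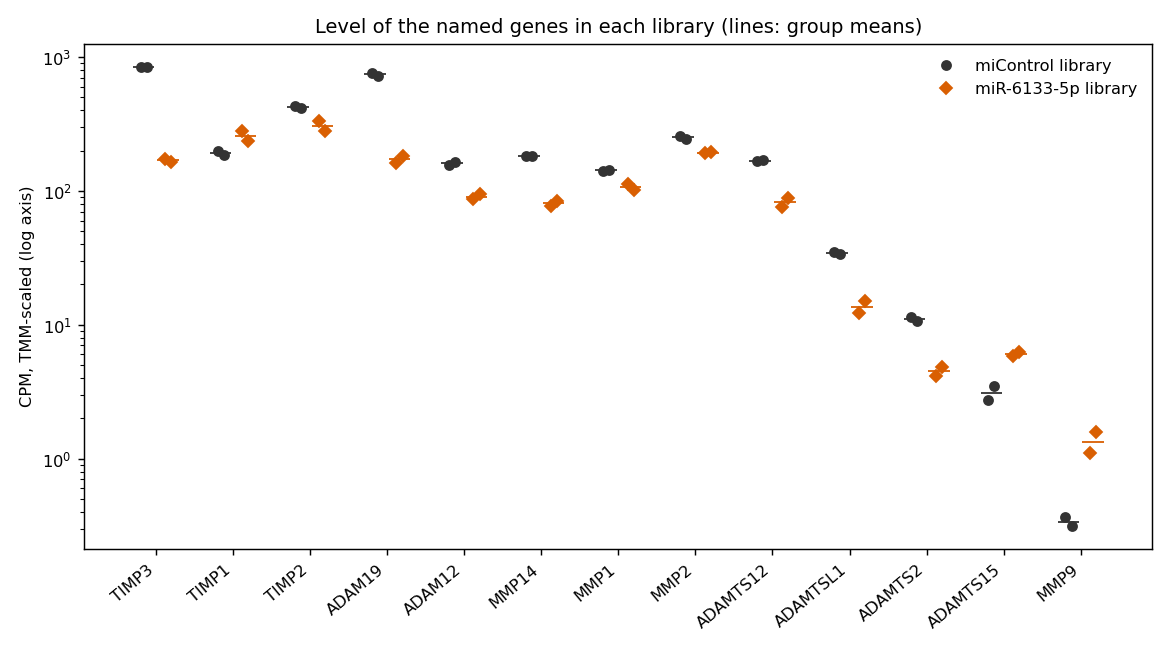
TMM-scaled CPM of 13 named genes in each library on a log axis, with circles for miControl, diamonds for miR-6133-5p and lines at the group means. The groups of every gene shown are apart, widest for TIMP3 and ADAM19 among the abundant genes, while MMP9 stays at or below 1.57 CPM.

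Of the 20 ADAMs, 13 were tested and 2, *ADAM19* and *ADAM12*, were called lower (15.4%, beside 5.54% of all genes tested). Both are catalytically active ADAMs known from mesenchymal tissue and fibrosis. *ADAM19*, meltrin beta, sheds neuregulins and was the most abundant ADAM per kilobase in the controls. It was at 761 and 722 CPM with miControl and at 160 and 184 CPM with miR-6133-5p. The groups were far apart, the level being 4.31-fold lower, with a log2 fold change of -2.11 ± 0.112 (SE) and an adjusted p of 5.63e-08. Its share of the ADAM sum per kilobase was 39.5% and 36.7% with miControl and 12.4% and 13.6% with the mimic. The study lists *ADAM19* among predicted targets of miR-6133-5p that were picked because they fell in these libraries, so the fall is no independent evidence for the prediction. The promoter of *ADAM19*, on the minus strand at chr5:157575726-157576025 of GRCh38.p14, is printed as that of the member with the next largest fall.
ADAM19 promoter: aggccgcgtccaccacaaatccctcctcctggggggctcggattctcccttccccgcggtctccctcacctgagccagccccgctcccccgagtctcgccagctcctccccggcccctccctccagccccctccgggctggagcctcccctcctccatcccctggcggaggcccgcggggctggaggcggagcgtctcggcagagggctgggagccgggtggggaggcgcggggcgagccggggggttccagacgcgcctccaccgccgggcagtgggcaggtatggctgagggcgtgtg

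No GC box letters stand in this window, although it holds 75.7% G and C and 26 CpG sites. GC boxes were found in the promoters of 30 of the 44 members with an entry (68.2%), beside 45.0% of all 35116 promoters. The first share counts genes, with 45 promoters among them, and the second counts promoters of any gene, so they are not strictly alike. GC boxes stood in promoters of genes called lower, such as *ADAM12* and *ADAMTS2*, and of genes not called, such as *ADAM15* and *TIMP1*.

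*ADAM12*, meltrin alpha, which cleaves insulin-like growth factor binding proteins, was at 157 and 164 CPM with miControl and at 87.2 and 94.1 CPM with miR-6133-5p. At -0.82 ± 0.103 (SE, adjusted p of 5.51e-05) on the log2 scale it lay just inside the fold threshold, and without miR-6133-5p replicate 1 it was -0.79 and no longer called. The main sheddases of the cell surface did not pass. *ADAM17*, which releases TNF and ligands of the EGF receptor, was at 29.7 and 29.0 CPM against 37 and 39.1 CPM with the mimic, and had an adjusted p of 0.0155. *ADAM10*, the sheddase of Notch and of cadherins, was at 212 and 265 CPM against 192 and 196 CPM, with an adjusted p of 0.0738. *ADAM9* was at 408 and 449 CPM with miControl and 367 and 381 CPM with the mimic, with a log2 fold change of -0.20 ± 0.104 (SE) and an adjusted p of 0.177. *ADAM9* held 33.3% and 36.0% of the ADAM sum per kilobase in the controls and 44.9% and 44.4% with the mimic.

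Several ADAMs lay on the higher side without being called. *ADAM15*, known from cell adhesion through its integrin-binding loop, was at 81.2 and 71.4 CPM with miControl and 120 and 122 CPM with miR-6133-5p. The difference of 0.67 ± 0.107 (SE) on the log2 scale had an adjusted p of 0.000389 but was smaller than the fold threshold. *ADAM32* (0.72, adjusted p of 0.00847) was the nearest gene outside the threshold on that side among the ADAMs, and *ADAM23* (-0.65, adjusted p of 0.000597), a neural ADAM without protease activity, was the nearest on the lower side. The sum of the ADAMs was 300.4 ± 4.03 CPM per kilobase (SD, n = 2) with miControl and 204 ± 6.75 with miR-6133-5p. At an unadjusted p below 0.05 in edgeR, 4 of the 13 tested ADAMs (30.8%) were on the lower side and 5 (38.5%) on the higher side, beside 20.3% and 20.0% of all genes tested, and DESeq2 called 2 lower and 0 higher.

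Of the 19 ADAMTS proteases, 15 were tested, all of them with enough counts in every library. Of these, 2 were called lower and 1 higher, with a median log2 fold change of 0.05. The calls are 13.3% and 6.67% of the tested genes, beside 5.54% and 2.90% of all genes tested. *ADAMTS2*, which cuts the aminopropeptide from procollagen and so allows collagen fibrils to form, was at 11.5 and 10.7 CPM with miControl and at 4.16 and 4.8 CPM with miR-6133-5p. The groups did not overlap, and *ADAMTS2* fell by 1.30 ± 0.145 (SE) on the log2 scale, with an adjusted p of 1.91e-05. The other procollagen N-proteinases were not called. *ADAMTS3* was at 4.57 and 4.73 CPM against 5.17 and 6.32 CPM, and *ADAMTS14* was between 0.549 and 0.746 CPM.

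*ADAMTS12*, which degrades cartilage oligomeric matrix protein, was at 167 and 169 CPM with miControl and at 75.7 and 88.5 CPM with miR-6133-5p. It was 2.05-fold lower, with a log2 fold change of -1.03 ± 0.110 (SE) and an adjusted p of 1.42e-05. *ADAMTS6*, per kilobase the most abundant ADAMTS in the controls, was at 205 and 228 CPM against 132 and 146 CPM, a log2 fold change of -0.64 ± 0.109 (SE) with an adjusted p of 0.00065 that did not reach the fold threshold. *ADAMTS16* was at 78.0 and 78.2 CPM with miControl and at 73.2 and 88.1 CPM with miR-6133-5p, with overlapping groups. *ADAMTS13*, the protease of von Willebrand factor, was at 0.610 and 0.440 CPM against 0.917 and 1.69 CPM, and *ADAMTS17* was at 0.712 and 1.05 CPM against 0.336 and 0.323 CPM. Their adjusted p-values were 0.0179 and 0.0189.

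The proteoglycan-cleaving ADAMTS proteases, which cut aggrecan and versican, had 1 gene of 5 tested called, *ADAMTS15* (20% higher, beside 2.90% of all genes). *ADAMTS1*, the most abundant of them, was at 127 and 130 CPM with miControl and 78.0 and 81.7 CPM with the mimic, and its log2 fold change of -0.68 ± 0.101 (SE, adjusted p of 0.000214) lay just outside the fold threshold. *ADAMTS15* was at 2.74 and 3.47 CPM with miControl and at 5.79 and 6.25 CPM with miR-6133-5p. *ADAMTS15* rose, with a log2 fold change of 0.95 ± 0.175 (SE) and an adjusted p of 0.00112, and lost the call without miControl replicate 1 (0.79, adjusted p of 0.0406). *ADAMTS4*, at 3.07 and 2.53 CPM against 4.74 and 4.79 CPM, lay just outside the threshold with 0.77 ± 0.181 (SE, adjusted p of 0.00591). *ADAMTS9* was at 1.69 and 2.44 CPM against 0.764 and 1.20 CPM, with a log2 fold change of -1.05 and an adjusted p of 0.0182. The sum of this class was 26.3 ± 0.632 CPM per kilobase (SD, n = 2) with miControl and 17.4 ± 0.65 with the mimic, most of it *ADAMTS1*.

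The ADAMTS-like proteins share the thrombospondin repeats of the ADAMTS proteases and lack the protease domain, and several of them, though not all, are known to bind to fibrillin microfibrils. Of the 5 genes 4 were tested. *ADAMTSL1* was at 34.9 and 33.5 CPM with miControl and at 12.3 and 14.9 CPM with miR-6133-5p. It was 2.51-fold lower, with no overlap, a log2 fold change of -1.33 ± 0.123 (SE) and an adjusted p of 4.06e-06. The other genes of the group were much rarer and were not called. *ADAMTSL3* was at 0.610 and 0.532 CPM against 0.275 and 0.242 CPM, with an adjusted p of 0.0744, and *ADAMTSL4* and *ADAMTSL5* were at or below 2.77 CPM.

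**Figure D4:**
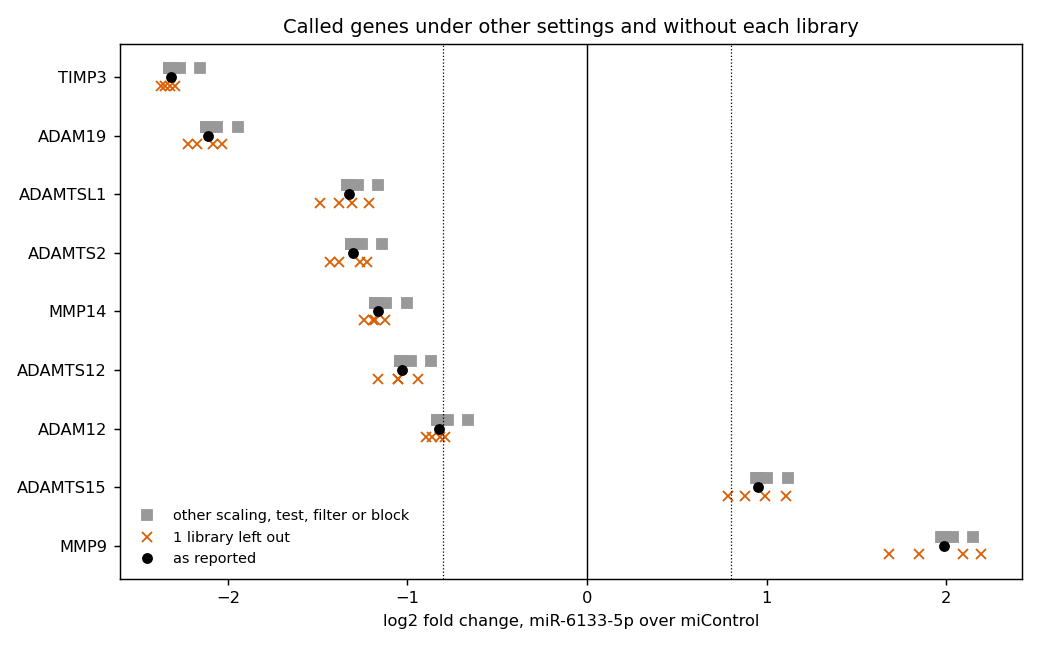
Log2 fold change of the called members other than MMP8 as reported (circles), with other scalings, tests and filters or a replicate block (squares) and with 1 library left out (crosses), and dotted lines at 0.8 on each side of 0. The points of TIMP3 span -2.37 to -2.15 and those of ADAM19 -2.22 to -1.94, far from the threshold, whereas ADAM12 spans -0.90 to -0.66 and crosses it.

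Genes that activate, traffic, inhibit or clear these proteases were taken as a separate list of 24 genes, of which 20 were tested. Of these, 4 were called lower with miR-6133-5p, 20.0% of those tested beside the background of 5.54%, and 0 higher, with a median log2 fold change of -0.05. At an unadjusted p below 0.05 in edgeR, 8 genes of the list (40%) were on the lower side and 3 (15%) on the higher side, beside 20.3% and 20.0% of all genes tested, and DESeq2 called 3 lower and 0 higher. *FURIN* and *PCSK7* are proprotein convertases, which remove the inhibitory propeptides of membrane-type MMPs, ADAMs and ADAMTS proteases. *FURIN* was at 230 and 210 CPM with miControl and at 72.5 and 78.2 CPM with miR-6133-5p, so that it fell by 1.55 ± 0.108 (SE) on the log2 scale, with an adjusted p of 4.27e-07. *PCSK7* was at 134 and 125 CPM against 50.7 and 55.5 CPM, and it fell by 1.29 ± 0.106 (SE), with an adjusted p of 1.46e-06.

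The other called genes of the list act on trafficking and uptake. *TSPAN14*, a tetraspanin that carries the ADAM10 protein to the cell surface, was at 175 and 171 CPM with miControl and at 87.6 and 94.8 CPM with miR-6133-5p. The change was -0.93 ± 0.103 (SE) on the log2 scale with an adjusted p of 2.02e-05 in edgeR. The call was lost with library totals alone, where the log2 fold change was -0.76, and with glmTreat. *LRP1*, the receptor that takes up MMPs and TIMPs from the medium, was at 302 and 285 CPM with miControl and at 121 and 216 CPM with the mimic. The libraries with the mimic disagreed, and the call (-0.80 ± 0.194, adjusted p of 0.007) was lost without miR-6133-5p replicate 1, where the log2 fold change was -0.46, and without either miControl library, in all in 8 of 14 other settings. *RECK*, a membrane-anchored inhibitor of MMPs, was between 4.46 and 5.71 CPM and was not called, with a log2 fold change of -0.25. *BSG*, which encodes an inducer of MMPs, was at 284 and 274 CPM against 345 and 307 CPM, with an adjusted p of 0.125.

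Many MMP promoters are known to carry sites for AP-1, the dimer of Fos and Jun proteins, and for ETS and RUNX factors. All 14 genes of such factors on the list were tested. *FOS*, *FOSL2* and *ETV1* were called lower and 0 genes higher, and the median log2 fold change of the list was -0.42. The called genes are 21.4% of the list, beside the background of 5.54%. In edgeR 9 of the 14 (64.3%) were on the lower side at an unadjusted p below 0.05 and 2 (14.3%) on the higher side, beside 20.3% and 20.0% of all genes tested, and DESeq2 gave 3 lower and 0 higher calls. *FOSL2* was at 123 and 115 CPM with miControl and 52.5 and 60.1 CPM with miR-6133-5p, or -1.08 ± 0.109 (SE) on the log2 scale, with an adjusted p of 9.11e-06. *ETV1* was at 15.4 and 15.1 CPM against 7.25 and 7.19 CPM (-1.08, adjusted p of 2.56e-05). *FOS* was at 3.09 and 2.46 CPM against 1.38 and 1.29 CPM (-1.06, adjusted p of 0.00412), and lost the call when either miControl library was left out. The most abundant genes of the list, *ETS1* (-0.33), *JUN* (-0.64) and *FOSL1* (-0.26), were not called. *ETS2* was on the higher side, at 80.5 and 75.8 CPM against 125 and 121 CPM (0.66, adjusted p of 0.000324).

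The AP-1 motif was searched as TGANTCA, which reads the same on both strands, in the RefSeq promoters of the members. It stood in 4 of the 44 members with an entry (9.09%, counted per gene), beside 7.71% of all 35116 promoters (counted per promoter). *ADAMTS12* was the one called gene among them. The windows are printed from 20 bases before to 20 bases after the match, in capitals, so that the 3 genes of the chromosome 11 cluster can be compared with *ADAMTS12*. They lie on the minus strand of GRCh38.p14, *ADAMTS12* at chr5:33892048-33892094, *MMP7* at chr11:102530788-102530834, *MMP10* at chr11:102780669-102780715 and *MMP20* at chr11:102625418-102625464.
ADAMTS12: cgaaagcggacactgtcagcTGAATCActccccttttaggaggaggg
MMP7: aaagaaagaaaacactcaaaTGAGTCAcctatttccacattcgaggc
MMP10: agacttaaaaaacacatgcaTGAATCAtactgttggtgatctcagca
MMP20: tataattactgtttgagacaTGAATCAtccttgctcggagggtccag

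In *MMP7* and *MMP10* the match begins at the same distance, -67 from the start, and letters of a TATA box (TATAAA on either strand) follow at -30 and -31. In *ADAMTS12* the AP-1 match begins at -84 and in *MMP20* at -112. The 3 MMP genes with the motif were not tested, having at most 10 counts in a library. Of the searched members with the motif, only *ADAMTS12* therefore has a measured change. The 27 members without a promoter entry were not searched, so these counts do not say whether they carry the motif. *TIMP3*, *TIMP1*, *ADAM19*, *ADAM12*, *ADAMTS2*, *ADAMTSL1*, *MMP14* and *MMP8* have a promoter entry without these letters. A match is a description of the letters in this window and not a site.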

How the data were processed

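Polyadenylated RNA of LX-2 cells was sequenced in 4 libraries, 2 per group, grouped by the transfection named in the labels. The authors deposited whole-number read counts per Ensembl gene with no normalization, and per the labels used STAR 2.5.3a, featureCounts of Subread 1.6.4 and GRCh37. Annotation release and strand setting are not given in the sources used here. Counts per uniquely mapped read pair were 1.68 to 1.70, so mates were largely counted singly and a count is not 1 fragment. Of 63677 identifiers 55665 matched a symbol, and 3 further rows that fit the naming patterns (ADAM5, ADAM6 and MMP23A) are not protein-coding and were left out. Lengths and positions came from GENCODE v44 lifted to GRCh37, promoters and the hairpin from RefSeq, where 44 members matched. Mature miRNA and protein sequences were not used here.

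With edgeR 4.0.16 under R 4.3.3, genes were filtered with filterByExpr, scaled by TMM and tested by glmQLFit and glmQLFTest on group alone, with Benjamini-Hochberg adjustment over 18252 genes. Thresholds were those of the study's methods. The common biological coefficient of variation was 0.105, and floors of 3 counts cover counting error only. SEs came from the F statistic and include the spread between libraries. The members and lists were chosen with earlier results of these data known. Named were all TIMPs, all called members, the most abundant member of each class, those next to the fold threshold, those whose call another setting changed, and called genes of the 2 lists. *ADAM10*, *ADAM17*, *ADAMTS3*, *ADAMTS14*, *ADAMTS16* and other uncalled genes beyond that rule were named for their roles after their values were seen. Other scalings, filters, thresholds, DESeq2 1.42.0, glmTreat, a replicate block and omission of each library were tried. The fit was tested on simulated data. Figures were drawn with matplotlib 3.10.9.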

Additional observations from a re-analysis of the deposited data

How the results depend on the processing

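*TIMP3*, *ADAM19* and *ADAMTSL1* were called lower in all 14 other settings. With library totals alone 7 members were called lower and 6 higher, beside 710 and 977 of the 18252 genes tested. In the lists 2 protease regulators were then called lower and 1 transcription factor higher. Then the median of the tested members was 0.05, beside 0.19 over all genes. A test against the fold threshold itself (glmTreat in edgeR) called 4 members lower (*TIMP3*, *ADAM19*, *ADAMTSL1* and *MMP8*) and 0 higher, beside 326 and 80 of the 18252 genes tested. Of the 4, *MMP8* had passed the filter only through its miControl libraries. On the higher side 2 members had an unadjusted p below 0.05 (2.62% of all genes). In the lists 2 regulators and 0 transcription factors were lower, where 3 factors had an unadjusted p below 0.05 (4.95% of all genes). *MMP14*, *ADAMTS2*, *ADAMTS12*, *ADAM12*, *MMP9* and *ADAMTS15* lost their calls there. With no fold threshold 13 of the 48 tested members were lower and 5 higher, beside 1984 and 1452 of the 18252 genes tested. In the lists 1 regulator was then higher, and 7 factors were lower and 1 higher. Upper quartile scaling ended the call of *ADAM12* and added *ADAMTS4*. With no filter on low counts 11 of 61 members were lower and 3 higher, beside 1110 and 699 of 33293 genes.

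Leaving out 1 library gave a median log2 fold change of the tested members between -0.32 and -0.12. Over all genes tested that median was between -0.0050 and 0.018. The number of calls changed with each omission over all genes as well, so changes of call are not particular to the members. Without miControl replicate 1 *MMP9*, *ADAMTS15* and *MMP8* lost their calls. Without miControl replicate 2 *MMP9* lost its call and *MMP8* was not tested. Without miR-6133-5p replicate 1 *ADAM12* was not called and *MMP15* and *ADAMTS13* were. Without miR-6133-5p replicate 2, which gave the median of -0.32, *ADAMTS9* was called lower. *MMP3*, at 0.36 as reported, was then at -0.29, and at most at 0.75 without another library. An arm with 1 library was assumed to vary like the other arm. The cause of these differences was not tested.

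The labels do not say whether libraries with the same replicate number belong together. Their deviations from the group means correlated at 0.0490 over the tested genes, which cannot decide this with 2 libraries per group. With the replicate block, 11 members were called lower and 3 higher, and 1130 and 642 of all genes against 1011 and 529. *MMP8*, *MMP9* and genes under about 1 CPM rest on few counts.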

Other observations

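Relations between enzymes and inhibitors that are known to act together were also read from the levels per kilobase, as values with no test. *TIMP2* to *MMP14*, the pair that forms the complex for activation of MMP2 at the cell surface, stood at 2.40 and 2.32 in the miControl libraries and at 4.34 and 3.36 in the miR-6133-5p libraries. *TIMP2* to *MMP2* stood at 1.61 and 1.64 with miControl and at 1.68 and 1.39 with miR-6133-5p, so the groups overlapped. *TIMP3* to *TIMP2* was on average 1.58 ± 0.0301 (SD, n = 2) with miControl and 0.439 ± 0.0362 with miR-6133-5p.

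Over all 71 members the summed level was 1154 ± 10.7 CPM per kilobase (SD, n = 2) with miControl and 869 ± 41.4 with miR-6133-5p. The sum of a family was lower with the mimic under each of the 4 scalings. With library totals alone the sum of the TIMPs with the mimic was 0.929 of that with miControl, and those of the MMPs, ADAMs and ADAMTS proteases were 0.779, 0.759 and 0.781. As reported these were 0.829, 0.696, 0.678 and 0.698. The ratio of the TIMP sum to the MMP sum, which the scaling does not touch, was 1.19 times that of miControl, and between 1.10 and 1.28 times when a library was left out.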
